A study of Homo sapiens with 4 samples.

Results

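The transcripts described are those of the 6 catalytic subunits of the proteasome, picked by symbol: the constitutive PSMB5, PSMB6 and PSMB7 and their inducible counterparts PSMB8, PSMB9 and PSMB10. They are 6 of the 15037 genes in the count table, and all 6 were among the 13497 genes that could be tested. RNA came from A549, an established human lung carcinoma epithelial line grown in DMEM, in 4 libraries of polyadenylated RNA. In 2 libraries PSME4 had been knocked down (PSME4 KD), and in the other 2 the knockdown is labelled RFP, given in the titles as the control (control KD). The labels name no cytokine, drug or time point, and do not give the knockdown reagent. Whether replicate libraries are from separate cultures is not stated either, and p-values therefore reflect the spread among these 4 libraries, possibly a technical one.

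The proteasome core is a barrel of stacked rings whose inner rings carry the protease sites. PSMB5 supplies the chymotrypsin-like site, PSMB6 the caspase-like site and PSMB7 the trypsin-like site. In cells exposed to interferon-gamma, and in many immune cells at rest, PSMB8, PSMB9 and PSMB10 take the places of PSMB5, PSMB6 and PSMB7 in newly assembled cores, which are then called immunoproteasomes and favour peptides suited to MHC class I molecules. PSME4, the targeted gene, encodes a cap that binds the end of the core. The series concerns this cap and tumour immunogenicity, which is the question behind comparing the pairs.

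The genes lie apart from each other except for a cluster in the MHC region. On GRCh38, PSMB8 spans chr6:32840717-32844679 and PSMB9 spans chr6:32854192-32859851, with the peptide transporter gene TAP1 between them and TAP2 on the other side of PSMB8. PSMB10 lies at chr16:67934506-67936850, PSMB5 at chr14:23025851-23035220, PSMB6 at chr17:4796164-4798495 and PSMB7 at chr9:124353465-124415442. Windows around start sites of the inducible genes, of TAP1 and of PSMB5 are shown. Those of PSMB8, PSMB10 and TAP1 hold the core letters of the interferon-stimulated response element, by which interferon signalling is known to reach such genes. The windows shown of PSMB9 and the constitutive PSMB5 lack these letters. The stretches are 200 bases long, 180 before to 20 after a start site, 5′ to 3′ on the strand of the gene, from RefSeq on GRCh38.p14. Capitals mark the core letters of the interferon-stimulated response element, GAAANNGAAA on either strand, where overlapping matches run together.

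PSMB8 (start 32844047, chr6:32844028-32844227, minus strand): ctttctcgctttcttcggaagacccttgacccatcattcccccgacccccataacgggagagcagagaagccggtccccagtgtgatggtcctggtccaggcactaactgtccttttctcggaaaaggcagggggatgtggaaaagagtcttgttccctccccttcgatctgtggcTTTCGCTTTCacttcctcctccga
PSMB10 (start 67936850, chr16:67936831-67937030, minus strand): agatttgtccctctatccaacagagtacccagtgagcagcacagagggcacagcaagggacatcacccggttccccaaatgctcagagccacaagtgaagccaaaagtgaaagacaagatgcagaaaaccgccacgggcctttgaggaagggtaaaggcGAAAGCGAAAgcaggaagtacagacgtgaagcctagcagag
PSMB9 (start 32854192, chr6:32854012-32854211, plus strand): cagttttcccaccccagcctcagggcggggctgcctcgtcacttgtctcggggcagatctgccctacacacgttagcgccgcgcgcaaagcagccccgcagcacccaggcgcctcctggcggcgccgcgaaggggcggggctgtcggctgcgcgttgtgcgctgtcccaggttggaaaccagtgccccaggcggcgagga
TAP1 (start 32853704, chr6:32853685-32853884, minus strand): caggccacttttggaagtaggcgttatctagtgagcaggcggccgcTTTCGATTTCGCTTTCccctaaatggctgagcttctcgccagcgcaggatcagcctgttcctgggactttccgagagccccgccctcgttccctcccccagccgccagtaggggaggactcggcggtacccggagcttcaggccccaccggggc
PSMB5 (start 23035220, chr14:23035201-23035400, minus strand): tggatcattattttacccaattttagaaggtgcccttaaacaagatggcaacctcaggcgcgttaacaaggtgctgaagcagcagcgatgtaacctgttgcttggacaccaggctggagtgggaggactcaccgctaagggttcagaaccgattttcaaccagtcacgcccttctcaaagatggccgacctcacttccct

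RefSeq windows of 300 bases (250 before to 50 after a start) matched 4 of the 6 genes, PSMB5, PSMB8, PSMB9 and PSMB10, in 6 windows. The response element core was present in the window of PSMB10, starting 21 bases before the start site, and in 1 of the 2 windows of PSMB8, starting 4 bases before it. It was found in 3.57% of all 35116 windows. The window of PSMB9 held no match, while TAP1, which starts 488 bases away and reads in the opposite direction, had overlapping matches that start 134 and 128 bases before its own start site. Neither of the 2 windows of PSMB5 held a match. The gamma-activated sequence, TTCNNNGAA, matched the same window of PSMB8, 65 bases before the start, with a share of 7.66% over all windows. It also matched the window of PSMB5 that is not shown (start 23034900), 158 and 15 bases before the start. The antioxidant response element core, TGACNNNGC on either strand, matched the window of PSMB9 only among these 4 genes (13.3% of all windows). These matches are descriptions of the letters and not of binding.

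Depth was 15208588 and 14845701 counts in PSME4 KD 1 and 2, against 11766371 and 11769392 in control KD 1 and 2. PSME4 itself stood at 75.3 and 85.1 CPM (counts relative to library size, scaled by the TMM method) in PSME4 KD, against 158 and 180 CPM in control KD, a log2 fold change of −1.08 (SE 0.20). Of the epithelial markers all 6 were detected in each library, led by the keratin KRT18. Among them KRT19 was low, with means of 2.43 CPM in PSME4 KD and 3.36 CPM in control KD. EPCAM was low too, at 7.32 CPM in PSME4 KD and 5.78 CPM in control KD. SFTPA1, SFTPB and SFTPC of alveolar type II cells were not in the table. The other alveolar type II markers, NAPSA and LAMP3, were in the table with too few counts to test. NAPSA had 5 and 8 counts in PSME4 KD and 6 and 6 in control KD, and LAMP3 had 9 and 7 in PSME4 KD and 3 and 7 in control KD. Blood cells carry inducible subunits at rest. Of the blood cell markers reported here PTPRC, CD3E, MS4A1, NKG7 and CD53 were not in the table, LYZ had 1 and 1 counts in PSME4 KD and 0 and 7 in control KD, and CD14 was the only 1 with enough counts to test, at 7.16 and 5.91 CPM in PSME4 KD and 5.36 and 4.73 CPM in control KD. Of 6 fibroblast markers 3 were in the table, with a summed level of 26.4 to 28.6 CPM in PSME4 KD and 17.2 to 21.2 CPM in control KD, and none of the 4 endothelial markers was. These 3 did not move together. The collagen gene COL1A1 rose (log2 fold change 0.73, SE 0.24, adjusted p = 0.0479, edgeR). The receptor gene PDGFRA fell (−1.34, SE 0.43, adjusted p = 0.0453, edgeR, on 11 to 30 counts per library). LUM was at 0.54 (SE 0.30). Over all tested genes 4.56% rose and 6% fell. With a correction for GC content COL1A1 (0.48, adjusted p = 0.166, edgeR) and PDGFRA (−1.20, adjusted p = 0.0749, edgeR) did not pass, while LUM did (0.88, adjusted p = 0.0375, edgeR). Their part in the results was not tested. In bulk RNA, fewer cells of a type and less RNA per cell cannot be told apart.

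The constitutive subunits were the abundant ones in both groups. Divided by the length of the transcript, so that genes can be compared, PSMB7 averaged 193 ± 5.97 CPM per kb in PSME4 KD and 155 ± 4.53 in control KD (SD, n = 2 each). PSMB6 averaged 101 ± 18.5 CPM per kb in PSME4 KD and 92.6 ± 25.5 in control KD, and PSMB5 76.6 ± 1.74 in PSME4 KD and 67.4 ± 5.53 in control KD. PSMB7, PSMB6 and PSMB5 stood in this order in each of the 4 libraries, although the SDs of PSMB6 and PSMB5 overlap within control KD.

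The inducible subunits lay far below. PSMB8 averaged 9.11 ± 1.07 CPM per kb in PSME4 KD and 6.35 ± 0.0175 in control KD (SD, n = 2 each). PSMB9 averaged 8.08 ± 0.299 CPM per kb in PSME4 KD and 7.47 ± 3.65 in control KD. PSMB8 and PSMB9 changed places between libraries, since PSMB9 was the higher one in control KD 1 only, so their order is not separated from the spread. PSMB10 was lowest in each library, at 3.21 ± 0.0358 CPM per kb in PSME4 KD and 2.37 ± 0.461 in control KD.

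**Figure D1:**
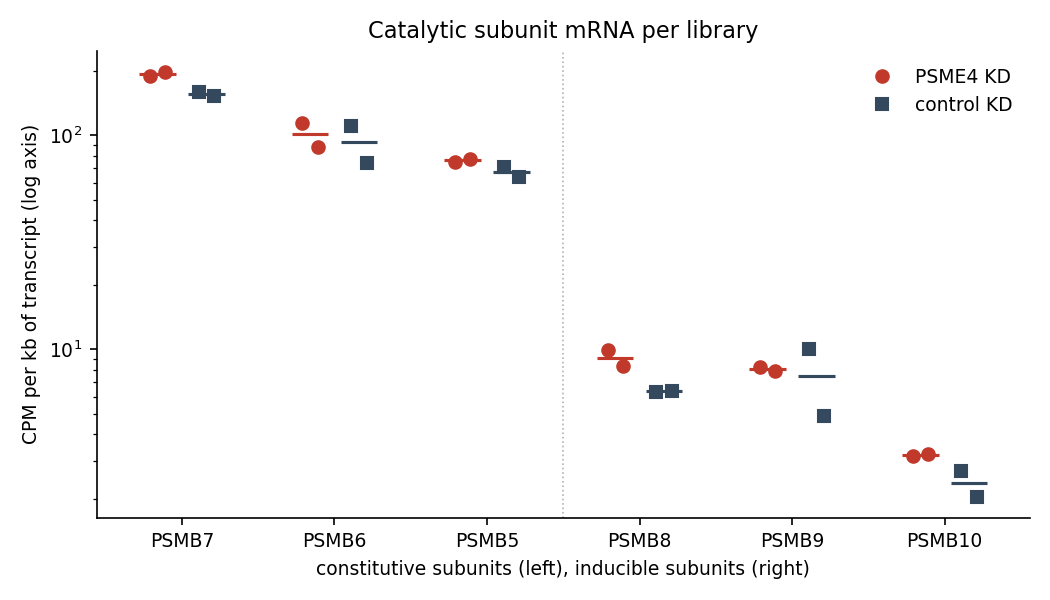
Levels of the 6 catalytic subunit mRNAs in CPM per kb of transcript on a log axis, with 1 point per library and a bar for the group mean. PSMB5, PSMB6 and PSMB7 lie at or above 63.5 CPM per kb in each library, and PSMB8, PSMB9 and PSMB10 lie at or below 10.1.

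No catalytic subunit passed the test between the groups, where 10.6% of all tested genes did. All 6 log2 fold changes were above 0, with a median of 0.18 for the constitutive and 0.43 for the inducible genes, beside −0.0021 over all tested genes. With a correction for GC content the medians were 0.08 for the constitutive and 0.19 for the inducible genes, and PSMB6 and PSMB9 were below 0. At an unadjusted p under 0.05 the count was also 0 by edgeR, where 26.2% of all genes fell under it. The CPM values of 4 members (PSMB5, PSMB7, PSMB8 and PSMB10) were higher in both PSME4 KD libraries than in either control KD library, a pattern that 26.7% of all tested genes shared, and no member had the opposite pattern, which 28.4% of the genes had. Those of PSMB6 and PSMB9 overlapped. Each fold change puts PSME4 KD over control KD. P-values came from the quasi-likelihood test of edgeR and were adjusted by Benjamini-Hochberg over the 13497 genes.

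For the chymotrypsin-like site, PSMB8 had 203 and 172 counts in PSME4 KD 1 and 2, against 99 and 100 in control KD 1 and 2. Scaled, these were 13.3 and 11.3 CPM in PSME4 KD, against 8.57 and 8.60 CPM in control KD. The groups did not overlap, and the control KD libraries were almost equal. The log2 fold change of PSMB8 was 0.52 (SE 0.26, adjusted p = 0.197, edgeR), the largest of the 6, with a 95% interval from −0.0062 to 1.05. PSMB5, which PSMB8 replaces, had 1484 and 1534 counts in PSME4 KD and 1066 and 955 in control KD. In CPM these were 97.5 and 101 in PSME4 KD, against 92.2 and 82.1 in control KD, so the gap between the groups was small beside the level. Its log2 fold change was 0.18 (SE 0.19, adjusted p = 0.586, edgeR), with an interval from −0.21 to 0.58.

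For the caspase-like site, PSMB9 had 100 and 95 counts in PSME4 KD 1 and 2, against 92 and 45 in control KD 1 and 2. The scaled values were 6.57 and 6.23 CPM in PSME4 KD and 7.96 and 3.87 CPM in control KD, so both PSME4 KD libraries lay between the control KD libraries. The log2 fold change was 0.11 (SE 0.32, adjusted p = 0.863, edgeR), with an interval from −0.54 to 0.76. It was −0.31 without control KD 2 and 0.72 without control KD 1. PSMB6 had 1519 and 1174 counts in PSME4 KD and 1114 and 755 in control KD, which is 99.8 and 77.0 CPM in PSME4 KD and 96.4 and 64.9 CPM in control KD. In both groups the library numbered 1 was the higher one, by 0.37 on the log2 scale in PSME4 KD and 0.57 in control KD, beside SDs over genes of 0.28 in PSME4 KD and 0.35 in control KD for the same difference. The log2 fold change of PSMB6 was 0.13 (SE 0.21, adjusted p = 0.740, edgeR), with an interval from −0.30 to 0.57. It was −0.06 without PSME4 KD 1 and −0.12 without control KD 2.

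For the trypsin-like site, PSMB10 had 59 and 60 counts in PSME4 KD and 38 and 29 in control KD. In CPM these were 3.88 and 3.94 in PSME4 KD, against 3.29 and 2.49 in control KD. The PSME4 KD libraries were almost equal and lay above both control KD libraries. The log2 fold change of PSMB10 was 0.43 (SE 0.35, adjusted p = 0.452, edgeR), and its interval, from −0.28 to 1.14, is the widest of the 6, on the fewest counts. PSMB7 had 2820 and 2949 counts in PSME4 KD and 1795 and 1733 in control KD, or 185 and 194 CPM in PSME4 KD against 155 and 149 CPM in control KD. Its log2 fold change was 0.32 (SE 0.19, adjusted p = 0.298, edgeR), with an interval from −0.07 to 0.70.

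PSMB7 overlaps another gene of the count table. This gene is LOC100129034, a long noncoding RNA of unknown role that spans chr9:124353473-124359186 in RefSeq. Its span, introns included, takes in all or part of 2 of the 8 exons of the longest protein-coding PSMB7 transcript, or 389 of its 980 bases. How far the exons of the 2 genes overlap was not measured. LOC100129034 rose, with 534 and 622 counts in PSME4 KD against 190 and 199 in control KD, a log2 fold change of 1.18 (SE 0.22, adjusted p = 0.00108, edgeR). The sources used here do not give the strand setting of the counting, so reads may have been shared between or withheld from both genes, and the part of this in the value of PSMB7 was not tested. PSMB8 overlaps PSMB8-AS1, which had 15 and 10 counts in PSME4 KD and 6 and 14 in control KD. The annotation also lists a pseudogene named PSMB7P1, not in the table, whose reads may have been shared with PSMB7.

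**Figure D2:**
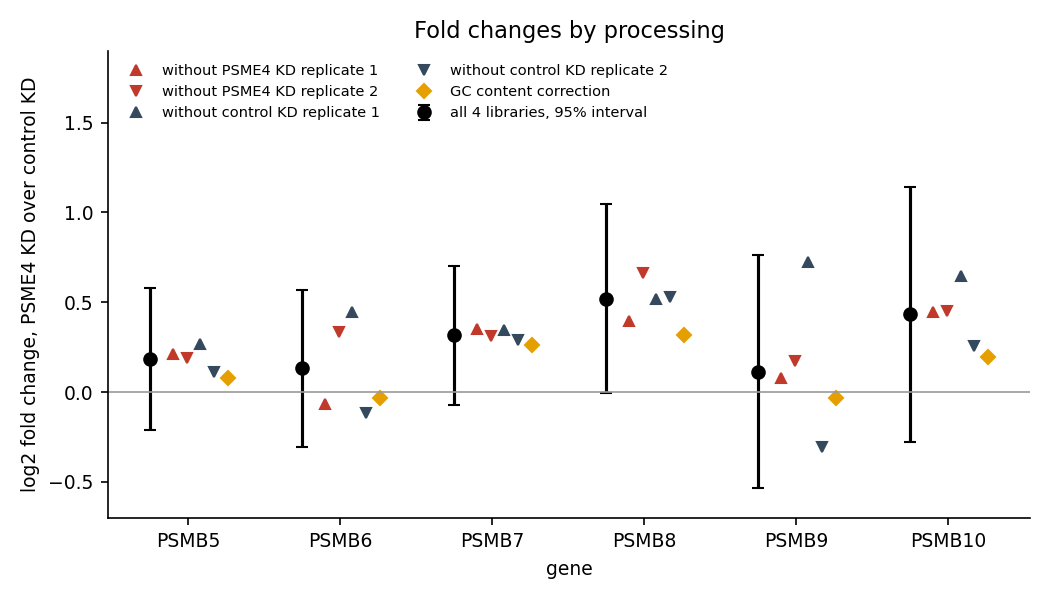
Log2 fold changes of the 6 genes, PSME4 KD over control KD, for all 4 libraries with the 95% interval of the edgeR fit, with each library left out and with a correction for GC content. All 6 intervals include 0, and PSMB6 and PSMB9 lie on both sides of 0 depending on the setting.

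Within a library the ratio of a pair does not depend on depth or scaling. PSMB5/PSMB8 was 7.31 and 8.92 in PSME4 KD 1 and 2, against 10.8 and 9.55 in control KD 1 and 2. Both PSME4 KD libraries had the lower ratio, but the 95% Clopper-Pearson intervals of PSME4 KD 2 (7.61 to 10.5) and control KD 2 (7.77 to 11.9) overlapped over most of their width. The difference of the mean log2 ratios, PSME4 KD minus control KD, was −0.33, beside SDs of 0.20 in PSME4 KD and 0.12 in control KD (n = 2 each). PSMB8 made up 12.03% and 10.1% of the counts of this pair in PSME4 KD, against 8.50% and 9.48% in control KD. Such intervals cover counting error only.

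PSMB6/PSMB9 was 15.2 and 12.4 in PSME4 KD, against 12.1 and 16.8 in control KD, so the groups overlapped. The difference of mean log2 ratios was −0.06, smaller than the SDs of 0.21 in PSME4 KD and 0.33 in control KD. PSMB7/PSMB10 was 47.8 and 49.2 in PSME4 KD, against 47.2 and 59.8 in control KD, and control KD 1 lay just below both PSME4 KD libraries. Its difference was −0.13, with SDs of 0.03 in PSME4 KD and 0.24 in control KD. The interval of control KD 2, from 41.5 to 89.5, contained the other 3 ratios.

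Summed over the trios, constitutive counts outnumbered inducible ones 16.1 and 17.3 to 1 in PSME4 KD, against 17.4 and 19.8 to 1 in control KD. The difference of mean log2 ratios was −0.15 (SDs 0.07 in PSME4 KD and 0.13 in control KD). The groups did not overlap, but PSME4 KD 2 and control KD 1 were almost equal. In exact two-sided permutation tests over the libraries, whose smallest possible p with 2 against 2 is 0.333, PSMB5/PSMB8 and the summed trios gave p = 0.333 and the other 2 ratios p = 1, with adjusted values over the 4 ratios of 0.667 and 1. Per kb of transcript the inducible share of the catalytic transcripts was 5.33% and 5.08% in PSME4 KD, against 5.31% and 4.38% in control KD, so on this scale the groups overlapped, with PSME4 KD 2 below control KD 1. Per kb, PSMB7/PSMB10 had the highest ratio of the 3 pairs in each library, at 58.7 to 74.3, above PSMB6/PSMB9 with at most 15.3 and PSMB5/PSMB8 with 7.63 to 11.2.

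**Figure D3:**
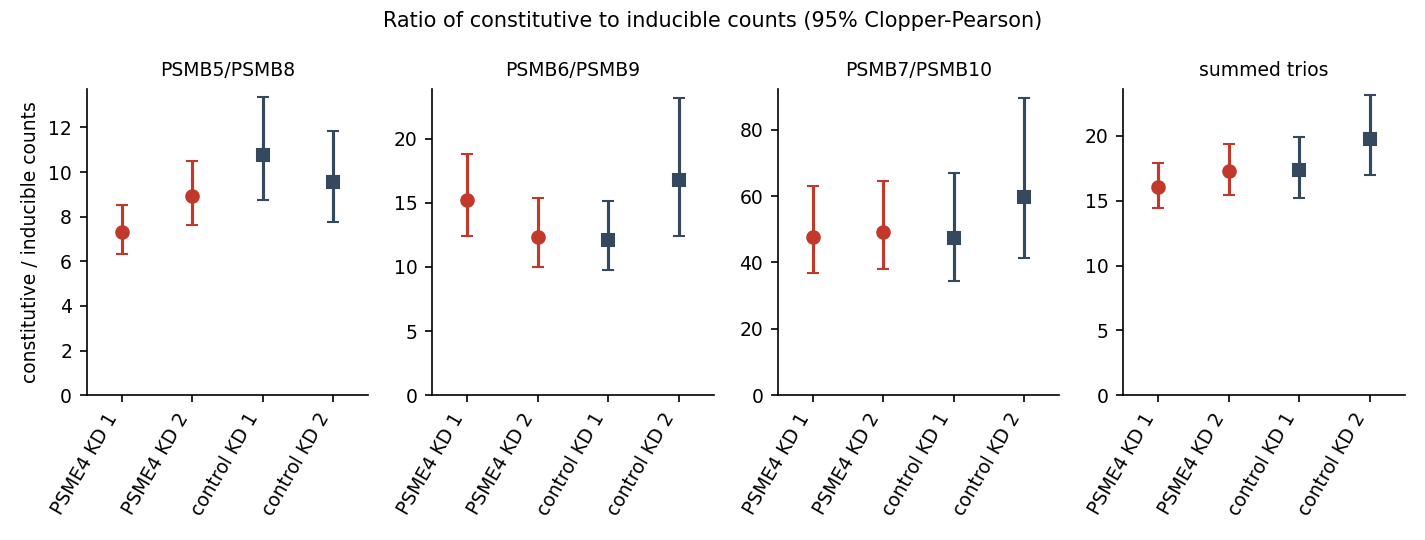
Ratio of constitutive to inducible counts in each of the 4 libraries for the 3 pairs and the summed trios, with 95% Clopper-Pearson intervals. For PSMB5/PSMB8 the PSME4 KD points (7.31 and 8.92) lie below the control KD points (10.8 and 9.55), while for PSMB6/PSMB9 and PSMB7/PSMB10 the groups overlap.

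The other subunits of the core, which build its rings without a protease site, moved in both directions. Of 11 structural subunits 1 rose and 3 fell, where 4.56% of all tested genes rose and 6% fell, and 7 stayed under the threshold. Their median log2 fold change was −0.14. PSMB3, of the beta rings, rose to 394 ± 19.9 CPM in PSME4 KD, against 250 ± 59.1 CPM in control KD (log2 fold change 0.66, SE 0.20, adjusted p = 0.0351, edgeR). PSMA4, PSMA3 and PSMA2, of the outer alpha rings, fell, with log2 fold changes of −0.80 (SE 0.20), −0.66 (SE 0.20) and −0.65 (SE 0.19). Leaving out any 1 library ended each of these 4 calls in edgeR, from fewer libraries, while each log2 value kept its sign. In those fits PSMA4 stayed between −1.02 and −0.54 and PSMA3 between −0.82 and −0.49. PSMA2 stayed between −0.76 and −0.52, and PSMB3 between 0.44 and 0.92. PSMA4 was the only 1 of the 4 called after the GC correction (−0.66). Per kb of transcript the structural subunits ranged from 41.0 to 417 CPM with a median of 218 over the 4 libraries, so PSMB7 (174), PSMB6 (97.0) and PSMB5 (72.0) lay within that range and PSMB8, PSMB9 and PSMB10 below it. The thymus subunit PSMB11 and the testis subunit PSMA8 were not in the table.

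Of 10 genes of core assembly, nuclear import and proteasome gene transcription, 2 fell and none rose, where 6% of all tested genes fell and 4.56% rose. With the GC correction 4 fell, where 701 of all 13497 tested genes fell and 556 rose. The 4 were POMP (−0.72), PSMG1 (−0.61), the chaperone PSMG4 (−0.77) and AKIRIN2 (−0.60), which takes part in nuclear import. POMP, the chaperone that guides beta subunits into a new core, fell to 85.8 ± 10.9 CPM in PSME4 KD, against 178 ± 14.3 CPM in control KD (log2 fold change −1.05, SE 0.20, adjusted p = 0.00104, edgeR). The chaperone PSMG1 fell by 0.65 on the log2 scale (SE 0.21, adjusted p = 0.0472, edgeR), a call that ended by DESeq2 and with library size as the only scaling. Neither was called in a fit with any 1 library left out, from fewer libraries. In those fits POMP stayed between −1.19 and −0.90 and PSMG1 between −0.84 and −0.45. PSME4 apart, none of the activator genes PSME1, PSME2 and PSME3 and the inhibitor gene PSMF1 passed, with log2 values of 0.42 (SE 0.21) for PSME1 and 0.20 (SE 0.19) for PSME2.

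Genes listed for interferon signalling and its regulation did not pass either. The list mixes genes of different roles, so its median is not a measure of signalling. Of 12 such genes 10 could be tested, with a median log2 fold change of 0.02, and SOCS1 and CIITA were not in the table. The kinase JAK2 was at −0.65 (SE 0.22, adjusted p = 0.0562, edgeR, and 0.0446 with the filter of 50 counts) and the transcription factor IRF1, which binds response elements of this kind, at 0.60 (SE 0.28, adjusted p = 0.172, edgeR). Of 8 genes that supply peptides to MHC class I molecules, none passed, with a median of 0.07. TAP1, which shares its start region with PSMB9, had 17.9 and 17.1 CPM in PSME4 KD, against 14.3 and 12.2 CPM in control KD, a log2 value of 0.40 (SE 0.24, adjusted p = 0.284, edgeR). The groups did not overlap for TAP1, whereas those of PSMB9 did. PDIA3, a chaperone of class I assembly, was at −0.34 (SE 0.19).

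**Figure D4:**
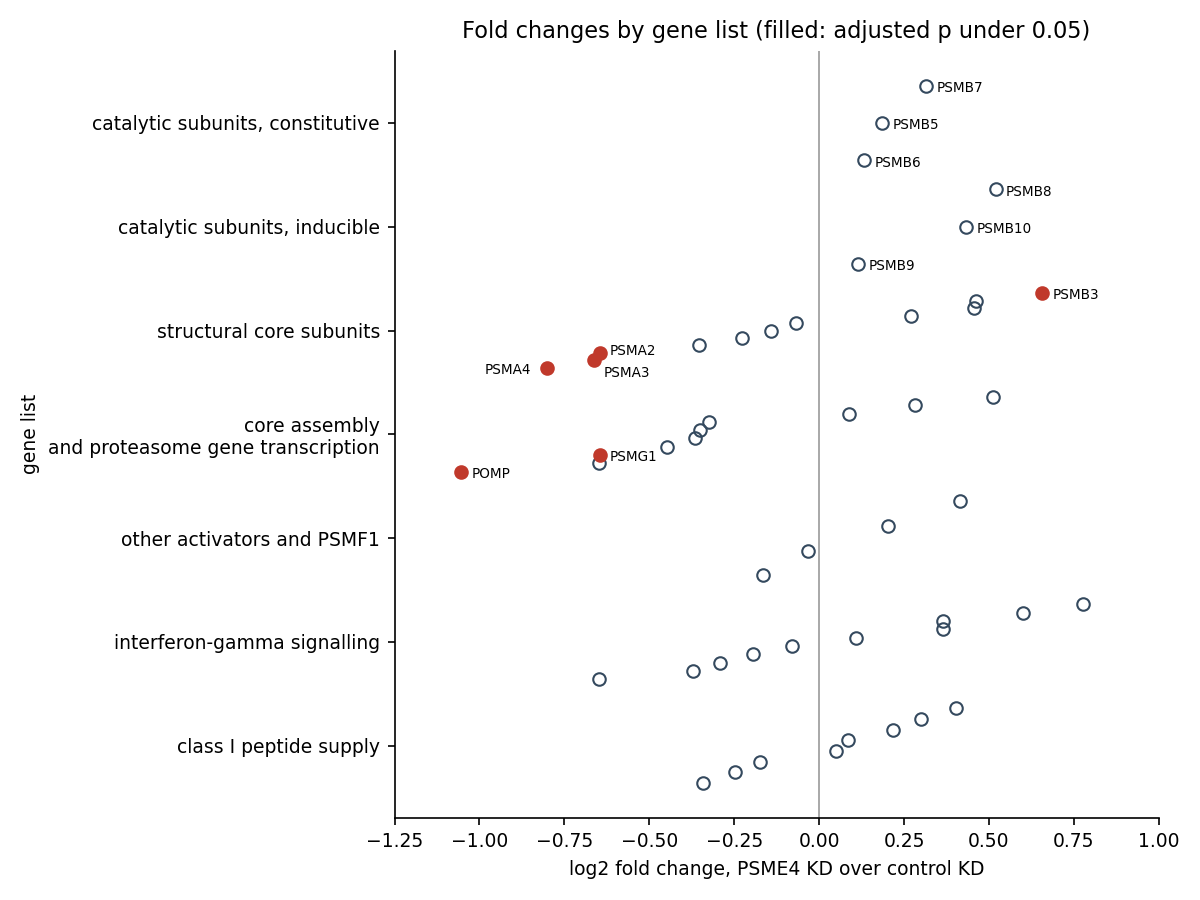
Log2 fold changes, PSME4 KD over control KD, of the tested genes of 7 lists, 1 point per gene and filled where the adjusted p by edgeR is under 0.05. The 6 catalytic subunits lie between 0.11 and 0.52 with none filled, while the structural subunits run from −0.80 to 0.66 with 4 filled.

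Among 42 other genes of these lists with a mean of at least 5 CPM, likeness was measured as the root mean square difference of log2 CPM, centred on the mean of each gene over the 4 libraries. The gene closest to PSMB7 was the interferon-gamma receptor chain IFNGR2 (0.04), to PSMB8 the structural subunit PSMB4 (0.06), to PSMB5 the assembly chaperone PSMG3 (0.07) and to PSMB10 the transporter TAP1 (0.07). PSMB6 was closest to NFE2L1, a transcription factor of proteasome genes (0.11). PSMB9, whose control KD libraries lay furthest apart, was closest to the activator subunit PSME1, at 0.23 the poorest match of the 6. With 4 libraries many genes have similar profiles.

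The values of these genes moved with a correction for GC content. Their longest protein-coding transcripts have a GC content of 49.9% (PSMB7) to 60.1% (PSMB10). A correction of each library for its trend with GC content moved all 6 log2 values down, by 0.06 for PSMB7 to 0.24 for PSMB10. PSMB8 was then at 0.32 (SE 0.22, adjusted p = 0.390, edgeR) and PSMB5/PSMB8 at −0.24. PSMB6 (−0.033) and PSMB9 (−0.034) changed sign. At the GC content of the 6 genes the trend of control KD 2 was −0.28 to −0.05 on the log2 scale and that of control KD 1 between −0.0026 and 0.024. The trend of PSME4 KD 1 was −0.019 to 0.149 and that of PSME4 KD 2 was 0.074 to 0.124.

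The authors' own comparison runs as control KD over PSME4 KD, so that a negative value in it means higher in PSME4 KD. In the authors' deposited table the log2 fold change was −0.53 for PSMB8 (adjusted p = 0.337), −0.44 for PSMB10 (0.673) and −0.12 for PSMB9 (0.924). It was −0.32 for PSMB7 (adjusted p = 0.336), −0.19 for PSMB5 (0.664) and −0.14 for PSMB6 (0.826) in the authors' deposited table.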

How the data were processed

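RNA of A549 cells was isolated with a phenol and chloroform method, selected with polyA beads and prepared with a Lexogen SENSE kit, per the labels' protocols. The submitters' processing notes name cutadapt, STAR, DESeq2 and hg38; the sources used here give no version, read counter, strand setting or annotation, nor whether alternate MHC haplotypes were in the index. The deposited whole-number counts per gene are not normalised, per the file headers. The deposited signal values are counts divided by a size factor per library, and were not used. The deposited log2 values are a regularised log, per the file headers, and served as an alternative. The authors' log2 fold change and p-values were copied for the members. The largest count of each gene over the libraries was at least 6, so low genes had been removed before deposit.

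Counts were fitted in R 4.3.3 with edgeR 4.0.16 (filterByExpr, TMM, glmQLFit, glmQLFTest; group as the only term, 2 residual degrees of freedom), with Benjamini-Hochberg adjustment over 13497 of 15037 genes and a threshold of 0.05. SE is the log2 fold change over the square root of F, and 95% intervals use the total degrees of freedom of the fit. Ratios are of raw counts within a library. Levels per kb use the longest protein-coding transcript in GENCODE 29 (GRCh38). Chi-square per degree of freedom between libraries of a group was 18.0 in PSME4 KD and 22.3 in control KD, above counting noise, so each counted as 1 replicate. Coordinates, neighbours and promoters are from RefSeq on GRCh38.p14.

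The members and lists were chosen with earlier results of these data known. Named genes are the members, PSME4, up to 5 called genes of each list or the 2 with the smallest p, the nearest tested gene on each side of a member, and the closest list gene in profile. Overlapping genes are named too, and markers were chosen as cell type lists. 1 blood cell marker of the lists is not reported here. Alternatives were no scaling beyond library size, scaling by the size factors of DESeq2, the tests of DESeq2 1.42.0 and limma voom (limma 3.58.1), no filter, a minimum of 50 counts in 2 libraries, a block for the replicate number, a lowess correction (span 0.4) for GC content, which 97.4% of tested genes had, a pseudocount of 1 for ratios, and each library left out. The fit was tested on simulated data with larger changes than those of the members, so that test does not bear on changes of their size. No batch is given in the labels.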

Additional observations from a re-analysis of the deposited data

How the results depend on the processing

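No catalytic subunit passed in any edgeR, DESeq2 or limma fit run, and 67 of 72 alternative member values kept their sign. These values are refits of the same libraries, many close to the main fit, so they are not independent of each other. The GC content correction turned PSMB6 (−0.033), PSMB9 (−0.034) and the activator PSME2 (−0.044) negative. With 1 library left out, log2 fold changes ranged from 0.11 to 0.27 for PSMB5, −0.12 to 0.44 for PSMB6, 0.29 to 0.35 for PSMB7, 0.40 to 0.66 for PSMB8, −0.31 to 0.72 for PSMB9 and 0.25 to 0.64 for PSMB10. The change of log2 PSMB5/PSMB8 ranged from −0.47 (without PSME4 KD 2) to −0.19 (without PSME4 KD 1), PSMB6/PSMB9 from −0.29 to 0.18, PSMB7/PSMB10 from −0.30 to 0.037 (without control KD 2) and the summed trios from −0.25 to −0.06. PSMB6/PSMB9 was at 0.092 without PSME4 KD 2 and 0.022 on the authors' regularised log values. On those values PSMB7/PSMB10 was at 0.051 and PSMB5/PSMB8 at −0.11, and with the GC correction PSMB7/PSMB10 was at 0.064 and the summed trios at −0.05. The cause was not tested. With a library left out, edgeR called 43 (without PSME4 KD 1) to 281 genes (without PSME4 KD 2), 53 without control KD 1 and 94 without control KD 2, against 1426 with all, from fewer libraries. Over the other alternatives it was 1151 to 1617, and library size as the only scaling gave 853 higher and 764 lower, against 616 and 810. The replicate block gave 1554 genes. For the pair ratios a block gives the same difference by arithmetic (−0.33 for PSMB5/PSMB8), so it is no check on them. The numbers do not pair the libraries by their labels, and the same-numbered deviations correlated at −0.04 over 8748 genes. PSMB10 had 29 to 60 counts per library, so changes the size of its interval (0.83-fold to 2.21-fold) could not be told apart.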

Other observations

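The nearest tested neighbours of the 6 genes that do not overlap them were read to see whether a stretch of chromosome stood apart. None of these neighbours passed the test by edgeR. LOC100129034, which overlaps PSMB7 and is described above, did pass, at a log2 fold change of 1.18 (SE 0.22). Beside PSMB10, the kinase gene PSKH1 was at a log2 fold change of 0.66 (SE 0.26) and the cholesterol acyltransferase gene LCAT at 0.46 (SE 0.54), on 5 to 15 counts per library. Beside PSMB6, the tetraspan gene TM4SF5 was at 1.38 (SE 0.48), with 28 and 27 counts in PSME4 KD and 7 and 9 in control KD, and the phospholipase gene PLD2 at 0.35 (SE 0.24). PSMB7 lies 158 bases from the mitotic kinase gene NEK6, which was at 0.20 (SE 0.23), and beside the nuclear receptor gene NR6A1, at 0.49 (SE 0.39). PSMB5 lies between C14orf93, at 0.13 (SE 0.29), and the cadherin gene CDH24, at 0.16 (SE 0.36). In the MHC region TAP2 was at 0.22 (SE 0.24), and LOC100294145, beyond PSMB9, at −0.15 (SE 0.20).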
